A study of Zea mays with 6 samples.

Results

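Of 45736 loci with FPKM values in maize (Zea mays) kernels, 98 had a moderate level in wild type and a lower level in every library of the mutant dek42. FPKM is the number of sequenced fragments scaled by transcript length and by all mapped fragments. The loci lie on chromosomes 1 to 10 and span over 500 and up to 30000 bases. Each had at least 5 FPKM in both wild-type libraries and a wild-type mean under 1000 FPKM. In each of them every dek42 library was at most 0.6 times the lower wild-type library. Loci that overlap another locus, and loci in a chain of 3 or more equal-span loci with starts under 200 kilobases apart, were left out. All conditions except the one on dek42 were met by 8621 loci, of which the 98 are 1.14%. The wild-type and dek42 values chose these loci, so their levels and fold differences are given as a description, without a test.

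The libraries were made from pooled kernels 15 days after pollination, of wild type (WT in the sample titles) and of the dek42 mutant (dek42-ref). The labels name no other allele, treatment or genetic background. Wild-type replicates 1 and 3 (n = 2) and dek42 replicates 1, 2 and 3 (n = 3) were used, while wild-type replicate 2 is not analysed here. The labels do not say whether replicates are separate plants, so the spread between them may be technical. A defective kernel (dek) mutant is impaired in the growth of the seed. A maize kernel holds an embryo, a starchy endosperm that stores starch and zein proteins, an aleurone layer and maternal pericarp, and at this age the endosperm is filling. The Dek42 gene codes for a protein with an RNA recognition motif that acts in pre-mRNA splicing. Whole kernels are bulk samples, so fewer cells of a type and less RNA per cell cannot be told apart.

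The files name each locus by its position alone, in build B73 RefGen_v4 per the submitters' processing notes. They pair no position with a gene, so loci are named by chromosome, start and end, and neither a gene function nor an exon, intron or UTR is given. For the same reason kernel marker genes and the Dek42 locus itself were not analysed here. The files hold no read totals, so sequencing depth is unknown. The dek42 libraries were shifted upward as a whole on the deposited scale, where the median of 20327 tested loci was 0.54 higher on log2(FPKM + 1). A second scale, called median-ratio scaling here, divided every library by a single factor (the median, over loci, of its ratio to the locus's geometric mean). That brought the median log2 change to 0.02.

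The 98 reduced loci went against this shift. In wild-type replicates 1 and 3 they had a median of 29.6 and 26.3 FPKM. In dek42 replicates 1, 2 and 3 the median was 9.28, 7.72 and 8.77 FPKM. Among all 8621 loci that met the other conditions the medians ran the other way, 17.2 and 16.5 FPKM in wild type and 23.2, 25.3 and 24.9 FPKM in dek42. Of those 8621 loci, 7039 had a higher mean in dek42 than in wild type as deposited, and 3370 after median-ratio scaling. In the linear model across all loci (limma on log2(FPKM + 1), Benjamini-Hochberg adjusted p under 0.05), all 98 were past the threshold and lower in dek42, beside 2.29% of all loci tested. Both the rule and the model read the same libraries, so nothing follows from that count.

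**Figure D1:**
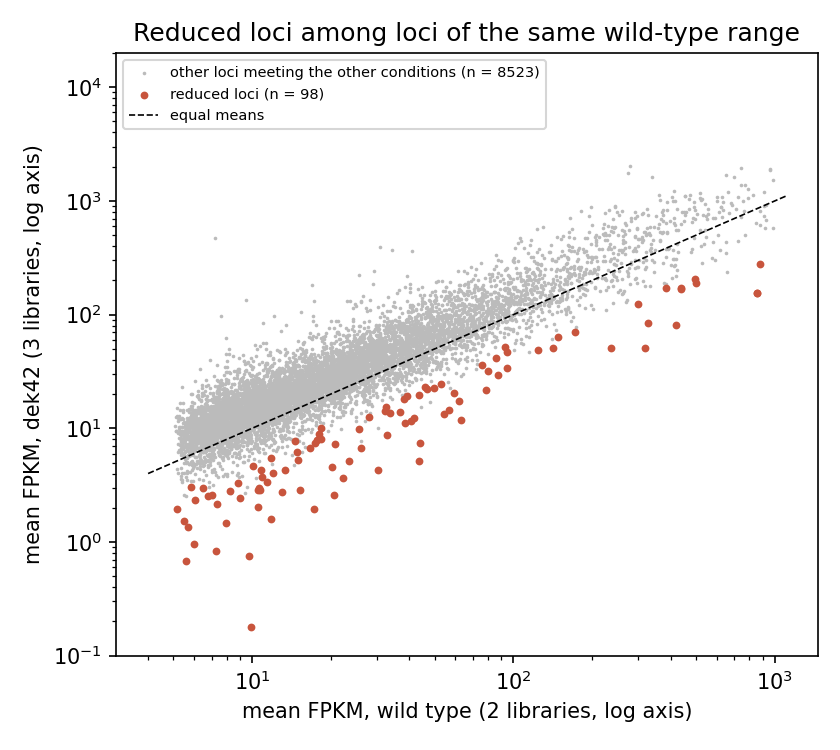
Mean FPKM in dek42 (3 libraries) against mean FPKM in wild type (2 libraries), both on log axes, for the 98 reduced loci (red) and the 8523 other loci meeting the other conditions (grey); the dashed line marks equal means. The red points lie below the line over the whole wild-type range, at varying distances from it, while most grey points lie above it.

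In ratio of mean FPKM, the loci were 1.77-fold to 55.8-fold lower in dek42, with a median of 2.90-fold. The median over the 8621 loci was 0.71, that is, higher in dek42. Of the 98 loci, 5 were under 2-fold lower, 49 were 2-fold to under 3-fold lower, 24 were 3-fold to under 5-fold lower and 18 were 5-fold to under 10-fold lower. The other 2 were over 10-fold lower. After median-ratio scaling the range was 2.75-fold to 86.3-fold and the median 4.50-fold, against 1.11-fold over the 8621 loci. All 98 stayed at or under 0.6 times the lower wild-type library on that scale, and 83 were at or under 0.4 times.

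Transcripts of most of these loci remained measurable in dek42. Every dek42 library held at least 1 FPKM at 88 loci and at least 5 FPKM at 56 loci. At 3 loci every dek42 library was under 1 FPKM, and 1 locus was listed at 0 in 1 dek42 library. Together the loci held 0.775% ± 0.024 (SD, n = 2) of summed FPKM in wild type and 0.213% ± 0.022 (SD, n = 3) in dek42. The 8 loci with the highest wild-type means made up over 0.5 of the wild-type sum.

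**Figure D2:**
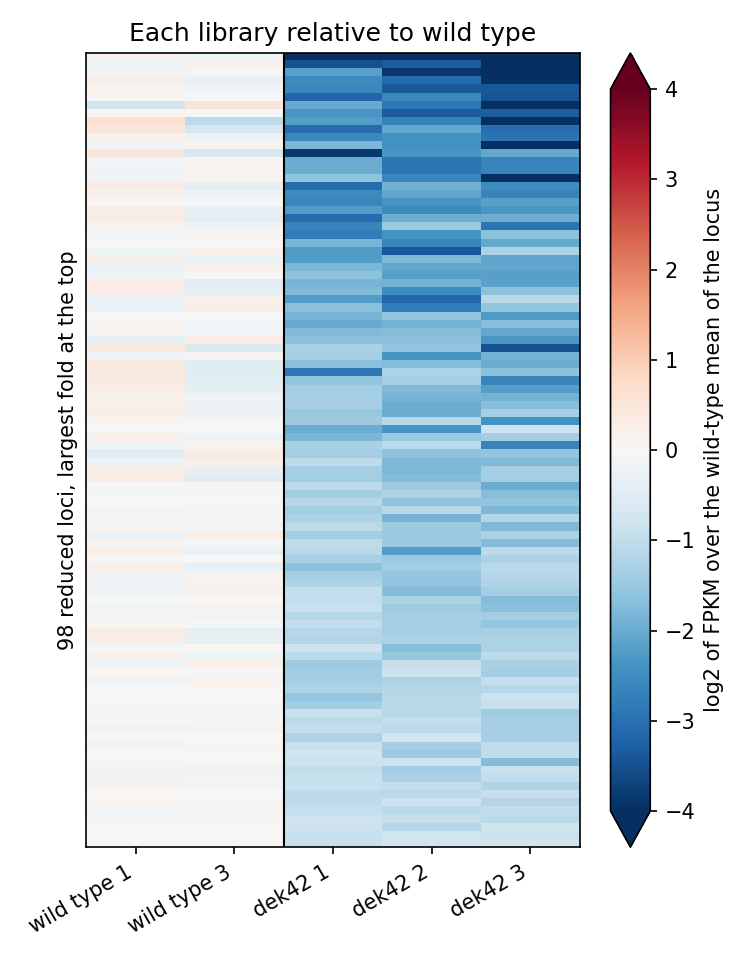
FPKM of each of the 98 reduced loci in each library, as log2 of its ratio to the wild-type mean of the locus, ordered by fold with the largest at the top; colours end at 4 in either direction. The 2 wild-type columns stay near 0, and the 3 dek42 columns are blue throughout, paler towards the bottom where the fold falls to 1.77.

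The locus with the highest wild-type level was chr4:5880092-5880632, which at 541 bases is also the shortest of the 98. The values were 962 FPKM (replicate 1) and 792 FPKM (replicate 3) in wild type, against 352, 243 and 237 FPKM in dek42 replicates 1, 2 and 3, the order kept below. All dek42 libraries lay under 0.5 times either wild-type library, and the means differed 3.16-fold. The fourth highest, chr4:5943969-5944767, lies 63.3 kilobases from it. It had 535 and 463 FPKM in wild type and 235, 185 and 148 FPKM in dek42, a 2.64-fold difference between means. Both sit inside a stretch of chromosome 4 that holds far more abundant loci, described with the neighbours. Whether reads of those loci also count towards these values is not known.

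The next 2 in level were a pair on different chromosomes with almost the same span and values, chr1:279124551-279128540 of 3990 bases and chr9:23107328-23111318 of 3991 bases. That on chromosome 1 had 800 and 913 FPKM in wild type and 218, 113 and 137 FPKM in dek42. That on chromosome 9 had 800 and 910 FPKM in wild type and 218, 113 and 136 FPKM in dek42. Their values differed by at most 0.44% in any library. No source used here says how reads that match several places were divided, so the pair may be near-identical copies that share reads, and the value of either alone is uncertain. No other locus came within 2% of one of the 98 in every library and within 1% of its span.

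The other 2 of the 6 highest varied little within a genotype. The locus chr5:163059295-163070333, of 11039 bases, had 534 and 457 FPKM in wild type and 224, 194 and 194 FPKM in dek42, 2.43-fold lower. The locus chr8:7619711-7621282 had 431 and 444 FPKM in wild type and 177, 157 and 183 FPKM in dek42, 2.54-fold lower. None of the 6 highest loci came near silence in dek42, where their lowest library had 113 FPKM.

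The steepest reductions were at loci of lower level. The locus chr9:124760890-124766137, of 5248 bases, stood apart from the rest in fold. It had 11.2 and 8.65 FPKM in wild type and 0.18, 0.15 and 0.20 FPKM in dek42, 55.8-fold lower (9.91 ± 1.77 FPKM, SD, n = 2, against 0.177 ± 0.024, SD, n = 3). Its 3 dek42 values lie close together, and the fold rests on values well under 1 FPKM. On log2(FPKM + 1) its change was -3.20, and the next largest was -2.87, at chr2:190827212-190830381. Next in fold came chr1:232015863-232017318, with 8.42 and 11.02 FPKM in wild type and 0.87, 0.96 and 0.44 FPKM in dek42, 12.8-fold lower. Also under 1 FPKM in every dek42 library was chr10:104219160-104224390, with 5.69 and 5.43 FPKM in wild type and 0.61, 0.93 and 0.51 FPKM in dek42, 8.12-fold lower. It is close to the floor of 5 FPKM in wild type.

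Other large reductions spread more widely in dek42 than that at chr9:124760890-124766137, where the highest dek42 library was 1.31 times the lowest. That ratio was 4.39, 2.98 and 1.75 at the loci that follow, in their order. The locus chr4:32709923-32711883 had 15.8 and 18.8 FPKM in wild type and 3.81, 1.16 and 0.87 FPKM in dek42, 8.88-fold lower. Its dek42 replicate 1 was over 3 times its other dek42 libraries. The locus chr8:72403031-72404407 had 8.60 and 5.99 FPKM in wild type and 1.24, 0.86 and 0.41 FPKM in dek42, 8.70-fold lower. At a higher level, chr2:190827212-190830381 had 47.8 and 39.3 FPKM in wild type and 7.22, 4.29 and 4.12 FPKM in dek42, 8.36-fold lower. At each of these 3 loci dek42 replicate 1 was the highest of the dek42 libraries and replicate 3 the lowest.

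The locus listed at 0 was chr1:292247304-292249329. It had 12.3 and 29.0 FPKM in wild type, 5.06 and 2.79 FPKM in dek42 replicates 1 and 2, and is listed at 0 in dek42 replicate 3. A 0 can be a failed estimate, and the wild-type libraries also differed 2.35-fold here, so this is one of the least firm of the 98.

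**Figure D3:**
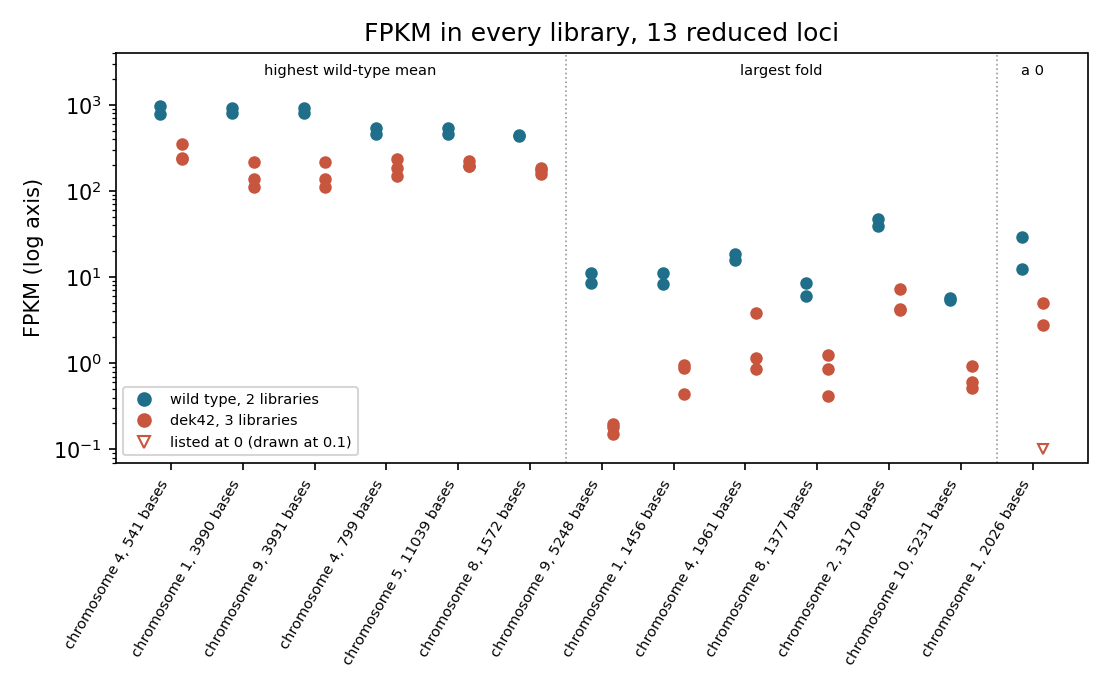
FPKM on a log axis in each wild-type library (blue) and dek42 library (red) of the 6 loci with the highest wild-type mean, the 6 with the largest fold among loci above 0 in every library, and the 1 locus listed at 0, whose 0 is drawn as an open triangle at 0.1. Red points lie below blue points at every locus, and the 5248-base locus of chromosome 9 is the lowest in dek42 of those above 0.

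Every numbered chromosome held some of the loci, from 5 on chromosome 7 to 17 on chromosome 1. As a share of the loci meeting the other conditions this ran from 0.726% on chromosome 7 to 1.51% on chromosome 9, around 1.14% in all. The largest fold on chromosomes 3, 5, 6 and 7 was smaller than on the chromosomes named above. On chromosome 3 it was at chr3:23586530-23587232, with 437 and 202 FPKM in wild type and 37.8, 77.4 and 38.8 FPKM in dek42, 6.23-fold lower. On chromosome 7 it was at chr7:19593330-19594177, with 508 and 332 FPKM in wild type and 89.4, 72.0 and 83.9 FPKM in dek42, 5.13-fold lower. On chromosome 6 it was at chr6:127847645-127849162, with 16.0 and 9.89 FPKM in wild type and 1.55, 3.33 and 3.36 FPKM in dek42, 4.72-fold lower. On chromosome 5, where the median fold of the 10 loci was the lowest of all chromosomes at 2.36, it was at chr5:38005177-38006513. That locus had 37.0 and 43.8 FPKM in wild type and 16.0, 7.87 and 10.8 FPKM in dek42, 3.49-fold lower.

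Reduced loci took a larger share of the loci with high wild-type levels and of short loci. They were 0.781% of loci whose wild-type mean was 5 to under 10 FPKM (18 of 2306) and 1.03% of those from 10 to under 50 FPKM (49 of 4773). Above that they were 1.49% of those from 50 to under 200 FPKM (18 of 1211) and 3.93% of those from 200 to under 1000 FPKM (13 of 331). By span they were 2.44% of loci of up to 2000 bases (29 of 1190), 1.09% of those of up to 5000 bases (41 of 3769), 0.680% of those of up to 10000 bases (17 of 2499) and 0.946% of longer ones (11 of 1163). With both together, the share was 8.99% of loci of up to 2000 bases with at least 200 FPKM (8 of 89) and 2.07% of longer loci at that level (5 of 242). The 8 include both loci of a chromosome 4 pair 63.3 kilobases apart and of a chromosome 7 pair 29.8 kilobases apart. The 5 include the 2 loci of almost the same span and values on chromosomes 1 and 9. Not all of these are therefore separate cases. Below 200 FPKM the shares were 1.91% (21 of 1101) and 0.890% (64 of 7189). The wild-type level entered the rule, and loci are not replicates, so these shares carry no test. The median span was 3508.5 bases, against 4427 bases over all loci meeting the other conditions, and the median fold in the 4 classes of span ran from 2.53 to 3.42.

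**Figure D4:**
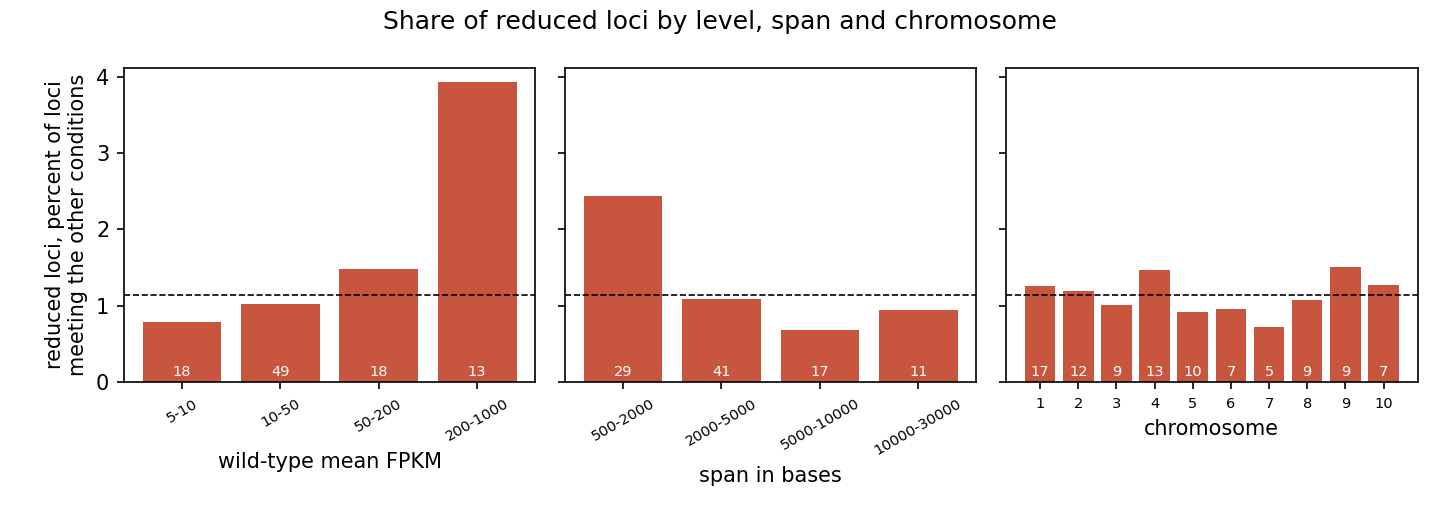
Reduced loci as a percent of the loci meeting the other conditions, by wild-type mean FPKM, span in bases and chromosome; the number in each bar is the count of reduced loci and the dashed line is 1.14%, the share over all classes. The bars rise with wild-type level to 3.93%, the bar for the shortest spans is the highest of its panel at 2.44%, and chromosomes lie between 0.726% and 1.51%.

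The longest of the 98, chr4:76139695-76156035 with 16341 bases, was also among the 5 least reduced. It had 18.7 and 18.0 FPKM in wild type and 9.85, 10.7 and 9.97 FPKM in dek42, 1.81-fold lower, with little spread in either genotype.

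Along the chromosomes, 49 of the 98 loci lay in the first or last 20% of their chromosome, measured to the end of the last listed locus, against 60.5% of the loci meeting the other conditions. The stretch from 40% to 60% held 7 of them (7.14%, against 9.84%). Their nearest listed locus lay at a median of 6.94 kilobases, against 3.56 kilobases. The median gap to the nearest other reduced locus was 7242 kilobases, and 10 of the 98 formed 5 pairs under 200 kilobases apart. Such gaps depend on the number of loci, and no equal number of other loci was measured beside them.

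The closest pair was on chromosome 8, separated by 1.12 kilobases. There chr8:149257113-149261860 had 8.80 and 12.3 FPKM in wild type and 3.35, 1.55 and 3.62 FPKM in dek42, 3.72-fold lower. Its partner chr8:149262979-149266214 had 22.2 and 24.9 FPKM in wild type and 3.49, 4.45 and 7.53 FPKM in dek42, 4.57-fold lower. The pair did not rank the dek42 libraries alike, with the lowest value in replicate 2 at the first locus and in replicate 1 at the second. On chromosome 7, 29.8 kilobases separate chr7:19593330-19594177 from chr7:19623985-19624830, which have 848 and 846 bases. The latter had 261 and 213 FPKM in wild type and 38.3, 83.9 and 31.5 FPKM in dek42, 4.63-fold lower. Here too the dek42 libraries ranked differently, since replicate 2 was the lowest at the first locus and the highest at the second. Next in distance is the pair on chromosome 4 given above. The remaining pairs lay 131 kilobases apart on chromosome 1, where the partner of the 12.8-fold locus was 5.32-fold lower, and 152 kilobases apart on chromosome 3, where the partner of the 6.23-fold locus was 2.995-fold lower.

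Loci next to the reduced ones were looked at in the same model. The nearest tested locus on each side that is not itself one of the 98 gave 191 neighbours, at a median distance of 55.4 kilobases. Of these, 13 fell (6.81%) and 56 rose (29.3%) in the limma model on the deposited scale (adjusted p under 0.05), while 122 did not pass. Over all loci tested 2.29% fell and 39.2% rose, and without the 98 these shares were 1.81% and 39.4%. Leaving the 98 out of the neighbours uses the rule's own condition on dek42, so the share that fell is not independent of it. With the 98 allowed as neighbours, a definition added after seeing the data, there were 195, of which 4 belong to the 98, and 17 fell (8.72%). Among 13312 loci chosen in the same way beside the other loci meeting the conditions, 1.80% fell and 39.5% rose. After median-ratio scaling 25 of the 191 neighbours fell (13.1%) and 6 rose (3.14%), beside 7.99% and 7.85% of all loci. The median log2 change of the neighbours was 0.42 against 0.54 over all loci as deposited, and -0.16 against 0.02 after scaling. Without wild-type replicate 1, 8 neighbours fell (4.19%), beside 1.35% of all loci. The count of neighbours that rose dropped to 27 without dek42 replicate 3, 32 without dek42 replicate 2 and 36 without either wild-type replicate, and the rises over all loci to 4894, 5160, 5719 (wild-type replicate 1 left out) and 5821 (replicate 3). The difference between the neighbours' share and that of all loci was not tested.

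**Figure D5:**
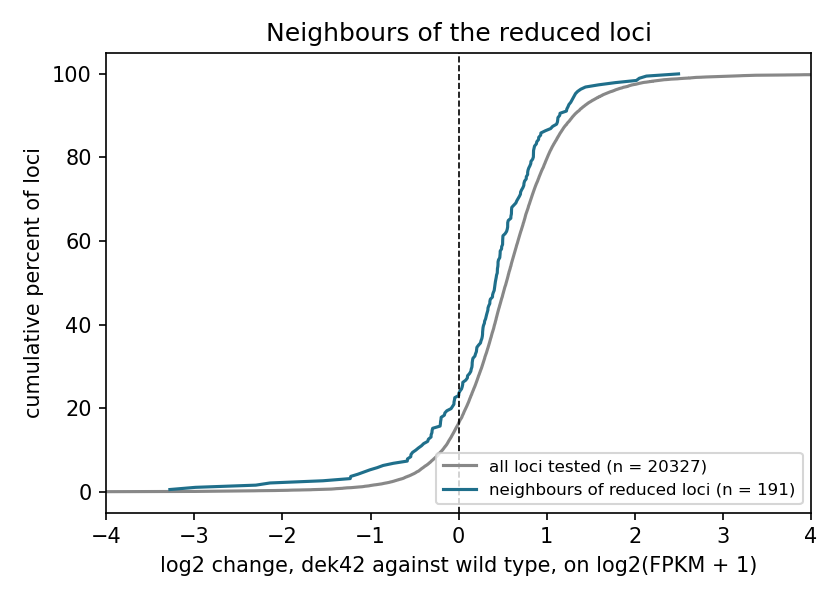
Cumulative percent of loci by log2 change in dek42 against wild type on the log2(FPKM + 1) scale as deposited, for the 191 neighbours of the reduced loci (blue) and the 20327 loci tested (grey); the axis ends at 4 in either direction. The blue curve lies to the left of the grey one over most of the range, with medians of 0.42 and 0.54.

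The largest falls among the neighbours were at very abundant loci of chromosomes 4 and 7. The locus chr4:5897750-5898554, 17.1 kilobases from the most abundant reduced locus, had 11954 and 11526 FPKM in wild type and 1348, 1319 and 993 FPKM in dek42 (-3.28 on the log2 scale, SE 0.27, limma adjusted p = 0.0014). The locus chr7:19535090-19549755, 43.6 kilobases from chr7:19593330-19594177, had 24431 and 31392 FPKM in wild type and 3821, 5067 and 2197 FPKM in dek42 (-2.99 on the log2 scale, SE 0.46, limma adjusted p = 0.0050). It overlaps another locus, and how reads were divided between them is not known. The other 2 neighbours above 1000 FPKM that fell are on chromosome 4, and 1 of them, chr4:5874885-5875686, named for its distance after its values were seen, lies 4.41 kilobases from the most abundant reduced locus. In all, 5 of the 98 loci (5.10%) lay within 1 megabase of 1 of 26 loci that had at least 1000 FPKM in wild type and met the 0.6 limit, against 1.55% of the loci meeting the other conditions. The 5 are the close pair on chromosome 4, the close pair on chromosome 7 and chr5:163059295-163070333. Both loci of the chromosome 7 pair are nearest to the same abundant locus, so the 5 are not separate places.

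Leaving out the neighbours at 1000 FPKM or more, 9 of 187 fell (4.81%), beside 1.67% of all tested loci under that level without the 98. Their wild-type means ran from 1.21 to 24.9 FPKM. Of these 9, 8 were 1.55-fold to 3.45-fold lower in mean FPKM, and 1 was listed at 0 in every dek42 library. Among the 8, chr2:216462632-216467303 of 4672 bases, named after its values were seen, lies 14.3 kilobases from a reduced locus of 4671 bases. It had 4.84 and 6.73 FPKM in wild type, where the reduced locus had 5.01 and 7.06 FPKM. Whether these loci share reads is not known, so this fall may not be separate. It is also counted among the falls within 50 kilobases given below. Over all 13 that fell, the distance to the reduced locus ran from 3.32 to 362 kilobases, and 9 lay within 50 kilobases. All 4 at 1000 FPKM or more are among these 9. Without them, 5 of 83 neighbours within that distance fell (6.02%), beside 1.73% of 7164 loci chosen in the same way beside the other loci meeting the conditions.

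Neighbours also moved the other way. The largest rise was at chr5:86316066-86317574, 8.20 kilobases from a reduced locus, with 0.021 and 0.20 FPKM in wild type and 6.55, 3.52 and 6.17 FPKM in dek42 (2.498 on the log2 scale, SE 0.29, limma adjusted p = 0.0025). That neighbour overlaps another locus. The next was chr7:19750769-19754324, with 1.53 and 1.29 FPKM in wild type and 5.85, 15.7 and 9.33 FPKM in dek42 (2.13 on the log2 scale, SE 0.37, limma adjusted p = 0.0067). It lies 126 kilobases from chr7:19623985-19624830, a locus that was 4.63-fold lower.

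The dek42 libraries lay further apart at the reduced loci than at the others. The highest dek42 library was at a median of 1.53 times the lowest, against 1.22 times over the 8523 other loci, and it was over 2 times the lowest at 24 of the 98 loci (24.5%, against 2.91%). Levels differed as well: the mean dek42 level had a median of 8.33 FPKM at the reduced loci and 24.4 FPKM over all loci meeting the other conditions. At a dek42 mean of 5 to under 20 FPKM the share over 2 times was 15.6% of 32 reduced loci and 3.91% of 3399 others. At 20 FPKM or more it was 6.67% of 30 and 1.74% of 5045, and under 5 FPKM 47.2% of 36 and 34.2% of 79. The rule bounds the highest dek42 library and leaves the lowest free, and its part in these shares was not tested.

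The dek42 libraries did not share the ranks evenly. Replicate 1 was the highest of the dek42 libraries at 45 of the 98 loci, replicate 2 at 24 and replicate 3 at 29. Over all loci meeting the other conditions, replicate 1 was the highest at only 21.2% and replicate 2 at 44.0%. After median-ratio scaling replicate 1 was the highest at 67 of the 98 loci, beside 45.1%. The median fold against the wild-type mean was 2.60 for dek42 replicate 1, 3.08 for replicate 2 and 3.15 for replicate 3 as deposited, and 3.78, 5.06 and 4.99 after scaling. The widest spread among loci above 0 was at chr3:105356376-105359732, which had 20.7 and 23.9 FPKM in wild type and 6.30, 4.20 and 0.45 FPKM in dek42. This locus was chosen after its values were seen.

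Between the wild-type libraries, the higher was at a median of 1.21 times the lower at the 98 loci and 1.19 times at the 8523 others. It was over 2 times the lower at 4 of the 98 (4.08%) and 249 of the others (2.92%). A range over 2 libraries is narrower than 1 over 3, and with any 1 dek42 library left out the dek42 median at the 98 loci was 1.30. Wild-type replicate 3 was above replicate 1 at 42 of the 98 loci (42.9%, against 46.6% of the others), with a median ratio of 0.96.

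The loci just inside and just outside the 0.6 limit were close in the ratio the rule reads. Wild-type level and fold varied within each side, and their ranges overlapped between the sides. The last inside were chr9:25841070-25846296, with 82.1 and 41.8 FPKM in wild type and 25.1, 21.4 and 5.53 FPKM in dek42, chr1:52938629-52945326 and chr5:212543655-212546035, with the highest dek42 library at 0.60 times the lower wild-type one. The first outside were chr1:25933438-25936325, with 72.5 and 53.6 FPKM in wild type and 32.5, 25.3 and 28.4 FPKM in dek42, chr5:12718249-12718810 and chr5:187053601-187054914, at 0.607, 0.608 and 0.616 times. Limits of 0.5 and 0.7 gave 53 and 162 loci.

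The number of loci chosen depended on the scale. Read with the genotypes exchanged, the same conditions were met by 2232 of 10303 loci (21.7%) as deposited. After median-ratio scaling the rule chose 488 of 9633 loci (5.07%), and the exchanged rule 442 of 9638 (4.59%). The 488 include 95 of the 98. The rest still met the 0.6 limit and were lost because scaling raised their wild-type means above 1000 FPKM, to 1131, 1109 and 1107. Because the scaling lowers dek42 relative to wild type throughout, the 98 are those reduced far enough to meet the limit without it.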

How the data were processed

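Total RNA of pooled kernels was sequenced on Illumina, per the labels' protocols. Each library has its own file of FPKM, deposited by the authors, per the file headers. The submitters' processing notes list TopHat2 2.1.0, Cufflinks 2.2.1 and B73 RefGen_v4, with no role or setting for any. Strand use and the division of shared reads are not stated. A file lists 45764 rows, and 14 spans listed as 2 rows each, all at 0, were left out. Depth is unknown, so no counting interval is given, and the number of libraries limits the precision.

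The test across loci, for those that reached 1 FPKM in 2 or more libraries, was limma 3.58.1 in R 4.3.3 on log2(FPKM + 1) (lmFit, eBayes with a mean-variance trend, genotype as the only term, two-sided, Benjamini-Hochberg, 0.05). This scale understates changes of low loci, and "fold" is a ratio of mean FPKM. The model was also run on simulated data in which a small set of loci was changed in both directions. Those data held no general shift between the genotypes, so that check does not cover the shift seen here. Median-ratio scaling used the loci above 0 in every library. Alternatives were other scalings, pseudocounts, filters, variance models, limits and floors, a replicate block, and leaving out each library. The members and lists were chosen with earlier results of these data known. Loci named in the text are the 6 with the highest wild-type mean, the 6 with the largest fold above 0, that listed at 0, the largest fold per chromosome, the 3 closest pairs, the 3 on each side of the limit, the longest and shortest, and 2 neighbours with the largest called change in each direction. A locus named outside these rules is marked in the text as chosen after its values were seen. Gene names and sequences were not used here.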

Additional observations from a re-analysis of the deposited data

How the results depend on the processing

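The number of loci chosen moved from 98 to 53 and 162 with limits of 0.5 and 0.7. It was 488 after median-ratio scaling (458 with the wild-type conditions as deposited, an alternative chosen after seeing the data). Leaving out 1 library gave 119 to 253 loci, with 171 without wild-type replicate 1 and 253 without wild-type replicate 3, by construction since fewer libraries must then meet the limit. A floor of 10 FPKM and keeping overlapping loci or equal-span chains left it within 1.5 times. The median fold moved from 2.90 to 4.50 with median-ratio scaling, 4.52 when rescaled without the 50 most abundant loci and 2.59 with a pseudocount of 1, and was 2.76 to 3.03 with a library left out. With the 50 most abundant loci left out of the denominator, the loci held 1.75% of wild-type FPKM and 0.386% of that of dek42, and among loci meeting the other conditions 2.58% and 0.560%. The highest over the lowest dek42 library had a median of 1.61 after scaling, and of 1.30 with any 1 dek42 library left out.

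Neighbours that fell numbered 13 as reported, 25, 24 and 23 after median-ratio scaling, quantile normalization and rescaling, 6 when any locus above 0 was tested, 20 of 379 with 2 neighbours a side, 17 with the 98 allowed as neighbours (added after seeing the data), and 8 to 12 with a library left out. Those that rose numbered 56 as reported, 6, 7 and 5 under the 3 scalings, 20 when any locus above 0 was tested, 129 with 2 a side, 25 within 50 kilobases, and 27 to 47 with a library left out (27 without dek42 replicate 3, 32 without dek42 replicate 2, 36 without either wild-type replicate). Over all loci tested 465 fell and 7966 rose, against 1625 and 1595, 1591 and 1521, and 1316 and 1165 under the 3 scalings, and 271 to 463 and 4894 to 6883 with a library left out. The cause was not tested. A lone wild-type library is assumed to vary like the dek42 libraries. With the replicate block, 8 neighbours fell and 23 rose, and 294 and 4206 loci over the whole table, with 1 residual degree of freedom. The labels do not say what same-numbered libraries share beyond the number. Their deviations from the genotype means correlated across loci with r of 0.0057 for number 1 and -0.015 for number 3. With 2 wild-type libraries the deviations of each mirror those of the other, so these values cannot decide whether a batch was shared.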
